A study of Homo sapiens with 6 samples.

Results

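The NRF2 antioxidant pathway was followed through 10 genes, namely NFE2L2, KEAP1, NQO1, HMOX1, GCLC, GCLM, SRXN1, TXN, TXNRD1 and SLC7A11. They were found by their symbols among the 30618 genes with counts, and 10 of the 10 were present. RNA-seq was performed on ARPE-19 cells, an established human retinal pigment epithelial line, kept in 50 mM glucose to model diabetic retinopathy. The NC group received a non-targeting control siRNA and the siEIF1 group an siRNA against EIF1, the initiation factor that helps the ribosome to choose the start codon, with 3 biological replicates in each. Both groups carry the high glucose, so the comparison is between siRNAs and not between glucose levels, and each group rests on 1 siRNA sequence. The libraries came from polyadenylated RNA and held between 26499929 and 31431479 counts.

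EIF1 checks the labels. It had 1305, 1254 and 1227 CPM (counts scaled to a common library size with the TMM factors of edgeR) in NC replicates 1 to 3 and 109, 104 and 103 in siEIF1 replicates 1 to 3, so the knockdown left 8.34% of the NC mean. The line was checked against its markers. Of 10 markers of retinal pigment epithelium, 6 had at least 1 FPKM (fragments scaled by gene length and by library depth) in every library. RPE65, a defining marker, was not among the genes with counts. The summed FPKM of these markers ran from 523 to 542 across the NC libraries and from 565 to 611 across the siEIF1 libraries. Most of this sum came from the keratins KRT18 and KRT8. Their means were 326 and 113 FPKM in the NC group and 382 and 131 in the siEIF1 group. BEST1 went from 66.0 to 52.0 FPKM and was not called. TYR, PMEL and RLBP1 stayed below 1 FPKM in every library, so the sum mainly follows the keratins. Of the 8 tested markers, 3 were higher after knockdown at an adjusted p under 0.05, where 10.2% of all tested genes were. These were KRT18, KRT8 and, at low counts, RLBP1. KRT8 lost its call without NC replicate 1 or siEIF1 replicate 2. The part of this shift in the results was not tested. Markers of endothelium, leukocytes, and photoreceptors and glia summed to at most 1.01 FPKM for each list in any library.

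NRF2, the product of NFE2L2, is a transcription factor that is held low by KEAP1, an adaptor that hands it to a CUL3 ubiquitin ligase. Oxidants and electrophiles modify cysteines of KEAP1, NRF2 then escapes degradation, pairs with a small MAF protein and binds antioxidant response elements near its target genes. These targets make glutathione, reduce thioredoxin, detoxify quinones and break down heme, and in the retinal pigment epithelium, with its high load of light and oxygen, they are a main defence against oxidation. Because NRF2 is controlled largely through the stability of the protein, its mRNA need not follow its activity, and neither protein nor oxidant levels were measured in these files.

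To show where NRF2 could bind, the antioxidant response element TGACNNNGC was searched on both strands of the RefSeq promoter windows (GRCh38, 250 bases before to 50 after each start site). A window was given for 8 of the 10 genes, all but HMOX1 and SLC7A11, and some genes have more than 1. The element was found in 4 of their 11 windows, in GCLM, KEAP1 and TXNRD1, against 13.3% of the 35116 windows of all genes. The AP-1 site TGANTCA, whose matches can overlap the element, and the C/EBP-ATF element TGATGNAA were found in 0 of the 11, against 7.71% and 3.62% of all windows. A fully specified form of the element, TGACTCAGC, which always contains an AP-1 match, was chosen after the values were seen and searched from 5000 bases before to 50 after each start, and was present in 2 of the 11 windows, those of NQO1 and GCLC, against 6.55% of all. The matches are printed in the direction of the gene with 10 bases on either side, and capitals mark the 9 letters of the element or of its reverse complement. A match is a description of the sequence, and binding was not measured.

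NQO1, at -455 from its start, chr16:69726997-69727025, in an exon of the divergent transcript NQO1-DT: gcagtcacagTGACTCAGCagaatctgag
GCLC, at -3156 from its start, chr6:53548239-53548267, in an intron of a longer annotated GCLC transcript: cgcacaaagcGCTGAGTCAcggggaggcg
GCLM, at -34 from its start, chr1:93909446-93909474, across the 5′ end of the annotated GCLM transcript that starts furthest upstream, with most of the capitals upstream of it: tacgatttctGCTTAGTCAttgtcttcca
TXNRD1, at -99 from its upstream start, chr12:104215670-104215698, outside annotated genes: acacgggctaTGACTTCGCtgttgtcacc
TXNRD1, at -102 from its downstream start, chr12:104286920-104286948, in an exon: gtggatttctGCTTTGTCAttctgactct
KEAP1, at -31 from its start, chr19:10502784-10502812, in an exon: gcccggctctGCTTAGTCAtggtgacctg

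Positions are those of the first printed capital. In the first search the element was thus found near TXNRD1, which differed between the groups, and near KEAP1 and GCLM, which did not pass the test. The wider search, chosen after the values were seen, added NQO1, which differed, and GCLC, which did not pass. TXN and SRXN1, which were lower, and NFE2L2, which did not pass, had a window and no match in either search. The printed cores of GCLM and KEAP1 are the same 9 letters. TXNRD1 held a further match at -8 from its upstream start and KEAP1 a further match at -54.

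The groups were compared to learn how EIF1 depletion in high glucose changes RNA levels. NQO1, TXNRD1 and SLC7A11 had less RNA in the siEIF1 group, at 65.3%, 71.4% and 73.0% of the NC mean, while NFE2L2 and KEAP1 did not pass the test. Of the 10 genes, 6 were lower at an adjusted p under 0.05 (edgeR's quasi-likelihood test, Benjamini-Hochberg over 16749 tested genes), and these were TXNRD1, NQO1, SLC7A11, TXN, SRXN1 and HMOX1. The number was 3 without NC replicate 1, NC replicate 3 or siEIF1 replicate 2, and 1 with limma on FPKM when genes of low FPKM were kept. Among all tested genes 10.4% were lower by the same rule, and 13.1% among the 7942 with a mean count at or above the lowest of the 10 genes, 512.5 counts in GCLM. None of the 10 was higher, where 10.2% of all tested genes were, and 0 were higher at an unadjusted p under 0.05 or by DESeq2 or limma. With the 2-fold limit of the study, 1.71% of the tested genes and 0 of the 10 were called, which is near that share. It was also 0 of the 10 at an unadjusted p and 0 by DESeq2 and limma. The median log2 fold change was -0.21 over the 10 genes and 0.0033 over all tested genes. All 10 passed the filter on low counts, and their mean counts ran from 512.5 to 31443. In whole-culture RNA, fewer cells that express a gene and less of its RNA per cell cannot be told apart.

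**Figure D1:**
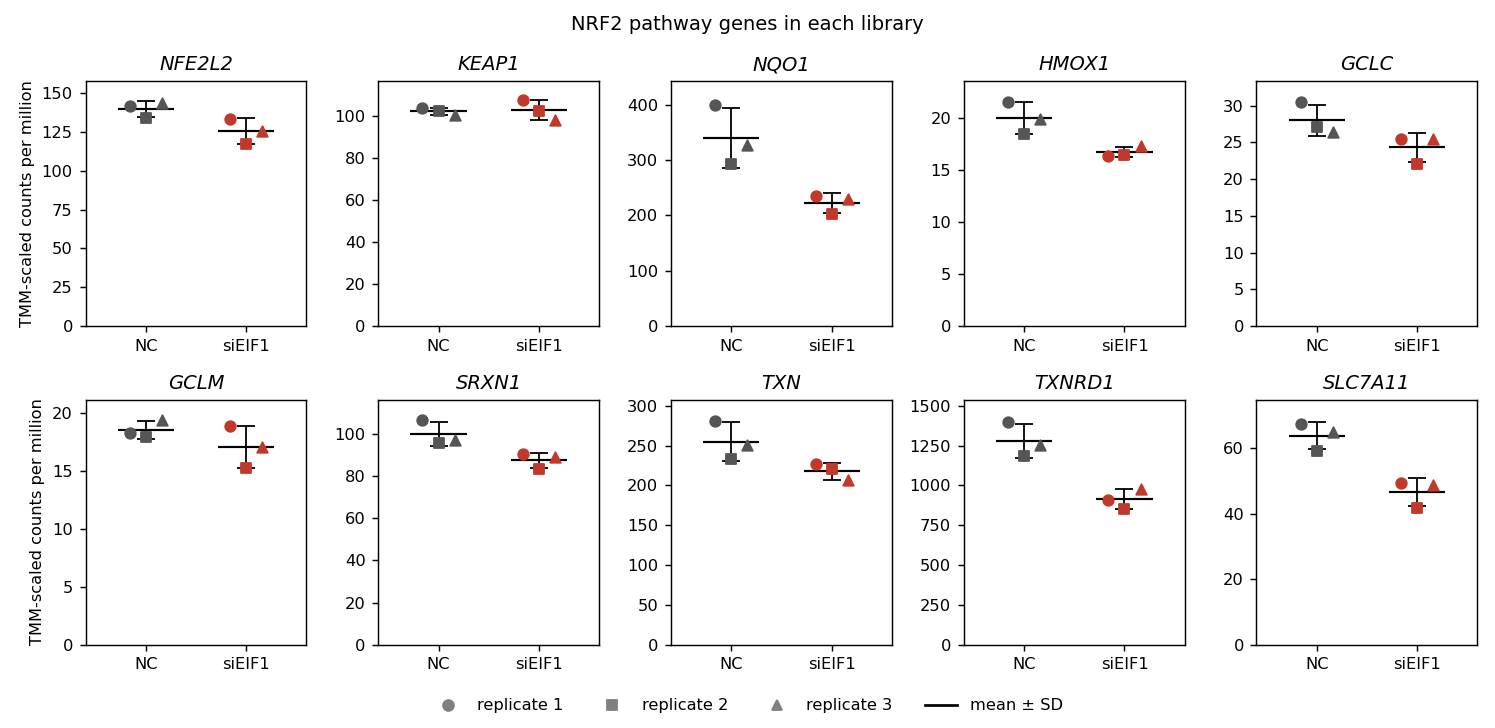
TMM-scaled counts (CPM) of the 10 genes in each of the 6 libraries, with a linear axis from 0 in each panel. Points are libraries, shaped by replicate number, and lines are the group mean ± SD (n = 3). All 3 siEIF1 points lie below all 3 NC points in 8 panels, and the groups overlap for KEAP1 and GCLM.

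The CPM of the siEIF1 libraries lay wholly below those of the NC libraries in 8 of the 10 genes, which was so in 18.9% of all tested genes. For a single gene, 3 libraries against 3 cannot reach an exact two-sided permutation p below 0.1. These 8 genes each had that smallest value, which any gene without overlap has, so it adds nothing to the lack of overlap.

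The regulators come first. NFE2L2 (ENSG00000116044.16), on the reverse strand of chromosome 2 at 177218667 to 177392756, had 142, 134 and 144 CPM in NC replicates 1 to 3 and 134, 117 and 126 in siEIF1 replicates 1 to 3. The siEIF1 values lay below the NC values, though the highest siEIF1 and the lowest NC library both stood near 134. A log2 fold change of -0.15 (standard error 0.055) did not pass the test (edgeR, adjusted p = 0.0641). The call was reached in 4 of 16 alternatives. These were without siEIF1 replicate 1, at -0.20 (edgeR, adjusted p = 0.0246), and with library size alone (edgeR, adjusted p = 0.0400). The others were no filter on low counts (edgeR, adjusted p = 0.0474) and the replicate number as a block (edgeR, adjusted p = 0.0147). Without siEIF1 replicate 2 the log2 fold change was -0.11 (edgeR, adjusted p = 0.252). In GENCODE release 44 the span of NFE2L2 overlaps exons of HNRNPA3 and AGPS on the opposite strand. HNRNPA3 had a mean count of 9311, which is 243% of that of NFE2L2, and a log2 fold change of -0.11 (edgeR, adjusted p = 0.132). The study describes strand-specific libraries. Whether the reads of NFE2L2, HNRNPA3 and AGPS were kept apart still depends on the strand setting of the counting, which is not given in the sources used here.

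KEAP1 (ENSG00000079999.14), on the reverse strand of chromosome 19 at 10486125 to 10503558, had 104, 102 and 100.4 CPM in the NC and 107, 102 and 97.9 in the siEIF1 libraries. The groups overlapped fully, and their means were 102 ± 1.72 and 103 ± 4.76 (SD, n = 3). Its log2 fold change of 0.0065 (standard error 0.049) changed sign between settings and did not pass the test in any of the 16 alternatives (edgeR main fit, adjusted p = 0.948). The ratio of NFE2L2 to KEAP1 counts within a library, which no scaling touches, was 1.37, 1.31 and 1.43 in the NC and 1.24, 1.14 and 1.29 in the siEIF1 replicates. The siEIF1 ratios were lower without overlap. This difference was not tested, and no share over other pairs of genes is given beside it.

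Of the 16 genes in the list of NRF2 control, 4 were lower and 1 higher (median log2 fold change -0.046). The shares over all tested genes were 10.4% lower and 10.2% higher. The small MAF proteins are the partners of NRF2 on DNA. MAFF fell from 8.66 ± 0.692 to 5.24 ± 0.783 FPKM (SD, n = 3), with a log2 fold change of -0.71 (edgeR, adjusted p = 8.06e-05). MAFG, itself a known target of NRF2, fell from 9.88 ± 0.219 to 7.21 ± 0.323 FPKM (SD, n = 3; log2 fold change -0.43, edgeR adjusted p = 5.42e-05). MAFK, which dimerizes with NRF2 in the same way, had a log2 fold change of 0.066 (edgeR, adjusted p = 0.426). BACH1, the repressor that competes with NRF2 for the same element, stood at 0.19 and did not pass the test (edgeR, adjusted p = 0.0547). MAFK and BACH1 are named after their values were seen. SESN2, a stress-induced sestrin, and SQSTM1, the autophagy receptor that can sequester KEAP1, were lower by -0.56 and -0.23 on the log2 scale. NFE2L3, a relative of NRF2, was higher at 0.24 (edgeR, adjusted p = 0.00781), but without NC replicate 3 the adjusted p was 0.0501 and no gene of this list was higher. Without siEIF1 replicate 2, 2 were.

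Quinone and heme enzymes followed. NQO1 (ENSG00000181019.13), on the reverse strand of chromosome 16 at 69706996 to 69726668, reduces quinones by a transfer of electron pairs and is widely used as a readout of NRF2. It had 400.1, 293 and 327 CPM in the NC replicates and 235, 202 and 230 in the siEIF1 replicates. NC replicate 1 stood well above the other NC libraries, and every siEIF1 library lay below them all. The siEIF1 mean was 65.3% of the NC mean, the largest drop among the 10 genes. On the log2 scale NQO1 differed by -0.61 (standard error 0.094, edgeR adjusted p = 4.79e-04), and 3.67% of all tested genes had a lower one. Without NC replicate 1 it was -0.48 (edgeR, adjusted p = 0.00118).

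HMOX1 (ENSG00000100292.18), on the forward strand of chromosome 22 at 35380361 to 35394214, encodes the inducible heme oxygenase. Its values were 21.5, 18.4 and 19.9 CPM in the NC and 16.3, 16.4 and 17.3 in the siEIF1 libraries. The groups did not overlap, and the siEIF1 libraries lay close together. Its log2 fold change of -0.26 (standard error 0.075) passed the test (edgeR, adjusted p = 0.0279). The call was lost without NC replicate 1, at -0.20 (edgeR, adjusted p = 0.113), and likewise without NC replicate 3, siEIF1 replicate 1 or siEIF1 replicate 2 (edgeR, adjusted p from 0.0664 to 0.0926).

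The thioredoxin system reduces protein disulfides. TXNRD1 (ENSG00000198431.16), the cytosolic thioredoxin reductase, lies on the forward strand of chromosome 12 at 104215779 to 104350307. It had 1399, 1186 and 1255 CPM in the NC and 907, 854 and 979 in the siEIF1 replicates. Each siEIF1 library lay below each NC library, and the siEIF1 mean was 71.4% of the NC mean. TXNRD1 had the smallest adjusted p of the 10 genes (log2 fold change -0.49, standard error 0.068, edgeR adjusted p = 2.54e-04), and its call held in all 16 alternatives.

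TXN (ENSG00000136810.13), thioredoxin itself, lies on the reverse strand of chromosome 9 at 110243810 to 110256507. It had 281, 233 and 251 CPM in the NC and 227, 221 and 206 in the siEIF1 libraries. The groups did not overlap, but NC replicate 2 and siEIF1 replicate 1 stood close to each other. On the log2 scale TXN differed by -0.23 (standard error 0.065, edgeR adjusted p = 0.0251). It lost the call without NC replicate 1, at -0.15 (edgeR, adjusted p = 0.109), and without NC replicate 3, siEIF1 replicate 2 or siEIF1 replicate 3 (edgeR, adjusted p from 0.0552 to 0.0686).

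The reductase can be set against its substrate within a library. The ratio of TXNRD1 to TXN counts was 4.97, 5.08 and 5.01 in the NC replicates, which were nearly alike. It was 3.997, 3.87 and 4.75 in the siEIF1 replicates, and these were lower without overlap, with siEIF1 replicate 3 nearest to the NC group. The difference in this ratio was not tested, and no share over other pairs of genes is given.

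SRXN1 (ENSG00000271303.2), on the reverse strand of chromosome 20 at 646615 to 653200, encodes sulfiredoxin, which restores overoxidized peroxiredoxins. It had 107, 96.1 and 97.6 CPM in the NC and 90.5, 83.7 and 89.1 in the siEIF1 libraries, without overlap. For SRXN1 the log2 difference was -0.19 (standard error 0.055, edgeR adjusted p = 0.0256). The call was lost without NC replicate 1, at -0.14 (edgeR, adjusted p = 0.105), without NC replicate 3 (edgeR, adjusted p = 0.0559) and without siEIF1 replicate 2 (edgeR, adjusted p = 0.122).

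Glutathione synthesis starts with cystine. SLC7A11 (ENSG00000151012.13), on the reverse strand of chromosome 4 at 138164097 to 138242349, is the transport subunit of the cystine and glutamate exchanger. It had 67.3, 59.3 and 64.9 CPM in the NC and 49.3, 41.8 and 48.8 in the siEIF1 libraries. All siEIF1 values lay well below the lowest NC value. The siEIF1 mean was 73.0% of the NC mean (log2 fold change -0.45, standard error 0.070, edgeR adjusted p = 5.49e-04), and the call held with each library left out in turn, at -0.51 to -0.38. SLC3A2, the heavy chain that anchors the exchanger in the membrane, fell from 61.5 ± 1.63 to 48.1 ± 1.25 FPKM (SD, n = 3; log2 fold change -0.33, edgeR adjusted p = 2.15e-04).

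The glutamate-cysteine ligase then commits cysteine to glutathione. GCLC (ENSG00000001084.13), its catalytic subunit on the reverse strand of chromosome 6 at 53497341 to 53616970, had 30.5, 27.1 and 26.4 CPM in the NC and 25.5, 22.01 and 25.5 in the siEIF1 replicates. The groups narrowly did not overlap, and the log2 fold change of -0.20 (standard error 0.078) did not pass the test (edgeR, adjusted p = 0.0889). GCLM (ENSG00000023909.10), the modifier subunit on the reverse strand of chromosome 1 at 93885199 to 93909456, had 18.2, 17.8 and 19.3 CPM in the NC and 18.8, 15.2 and 17.0 in the siEIF1 libraries. These values overlapped, and the log2 fold change was -0.12 (standard error 0.083, edgeR adjusted p = 0.368). The ratio of GCLC to GCLM counts was 1.67, 1.52 and 1.37 in the NC and 1.35, 1.44 and 1.50 in the siEIF1 libraries, so the groups overlapped here too.

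**Figure D2:**
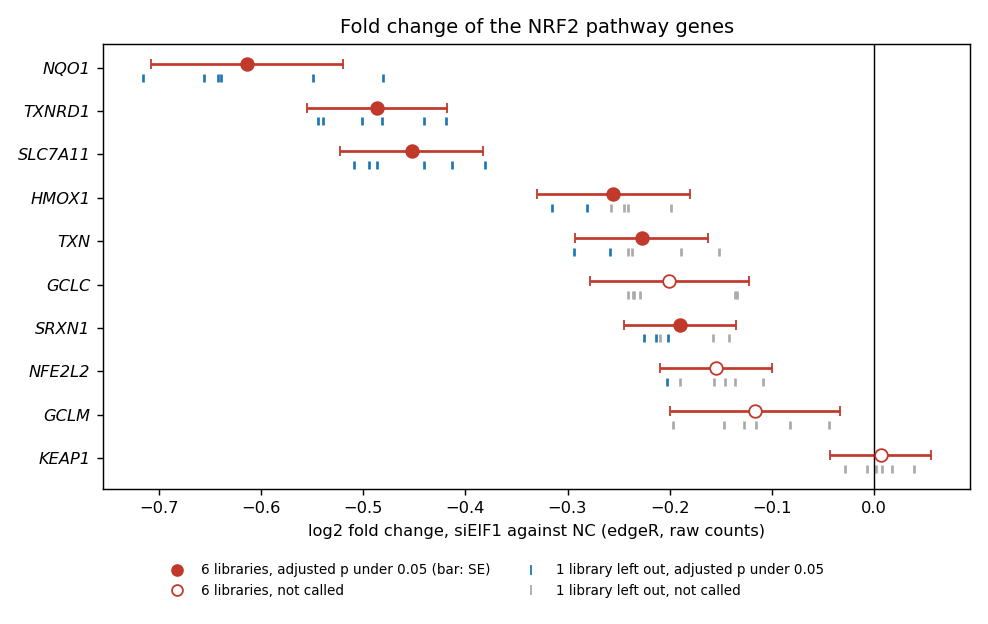
Log2 fold change of the 10 genes, siEIF1 against NC, from edgeR on raw counts. Circles are the fit of 6 libraries with its standard error, filled where the adjusted p was under 0.05, and ticks are the fits with 1 library left out, blue where called. NQO1, TXNRD1 and SLC7A11, from -0.61 to -0.45, keep the call in all 6 of these fits, HMOX1, TXN and SRXN1 lose it in some, and KEAP1 lies at 0.

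By size, NQO1, TXNRD1 and SLC7A11 had log2 fold changes from -0.61 to -0.45, and their calls held with each library left out in turn. HMOX1, TXN and SRXN1, from -0.26 to -0.19, were called with all libraries. GCLC, NFE2L2 and GCLM, from -0.20 to -0.12, were not called, and KEAP1 was at 0.0065. Differences between these genes were not tested. Ratios to NFE2L2 within the same library were taken for the genes with the largest drops, NQO1, TXNRD1 and SLC7A11, and for HMOX1. They were not taken for the other genes or for pairs outside the 10, so no background share is given. A gene that fell more than NFE2L2 has a lower ratio, so these values largely restate the fold changes. For NQO1, the siEIF1 ratios to NFE2L2 fell outside the NC range. The ratio was 2.82, 2.18 and 2.28 in the NC and 1.76, 1.72 and 1.83 in the siEIF1 replicates. The ratio of TXNRD1 to NFE2L2 was 9.86, 8.84 and 8.74 against 6.78, 7.28 and 7.78, and that of SLC7A11 to NFE2L2 was 0.475, 0.442 and 0.452 against 0.368, 0.356 and 0.388, both without overlap. For HMOX1 the ratio to NFE2L2 was 0.152, 0.137 and 0.138 in the NC and 0.122, 0.140 and 0.137 in the siEIF1 libraries, and the groups overlapped.

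**Figure D3:**
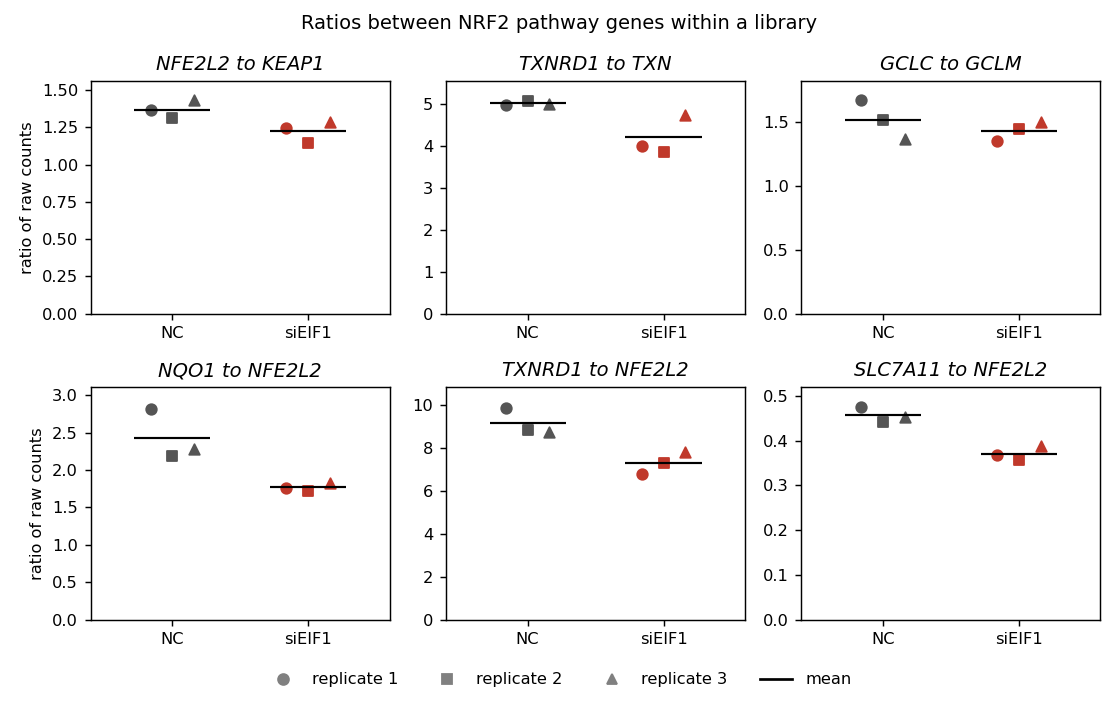
Ratios of raw counts between pairs of the 10 genes within a library, with a linear axis from 0. Points are the 6 libraries, shaped by replicate number, and lines are group means (n = 3). The siEIF1 points lie below the NC points for NFE2L2 to KEAP1, TXNRD1 to TXN and the ratios of NQO1, TXNRD1 and SLC7A11 to NFE2L2, while GCLC to GCLM overlaps. HMOX1 to NFE2L2, which also overlaps, is not drawn.

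The libraries of a group differed across the 10 genes together. NC replicate 1 had the highest NC value in 8 of the 10 genes and NC replicate 2 the lowest in 8. In the siEIF1 group, replicate 1 was highest in 7 and replicate 2 lowest in 7. As a median over the 10 genes, the difference from the NC mean on the log2 scale was 0.10, -0.082 and -0.023 in NC replicates 1 to 3 and -0.15, -0.28 and -0.19 in siEIF1 replicates 1 to 3. The siEIF1 library nearest to the NC group, replicate 1, lay below the lowest NC library by this median. Without NC replicate 1, NC replicate 3 or siEIF1 replicate 2, the number of genes called lower was 3, and it was 5 or 6 without any other library.

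**Figure D4:**
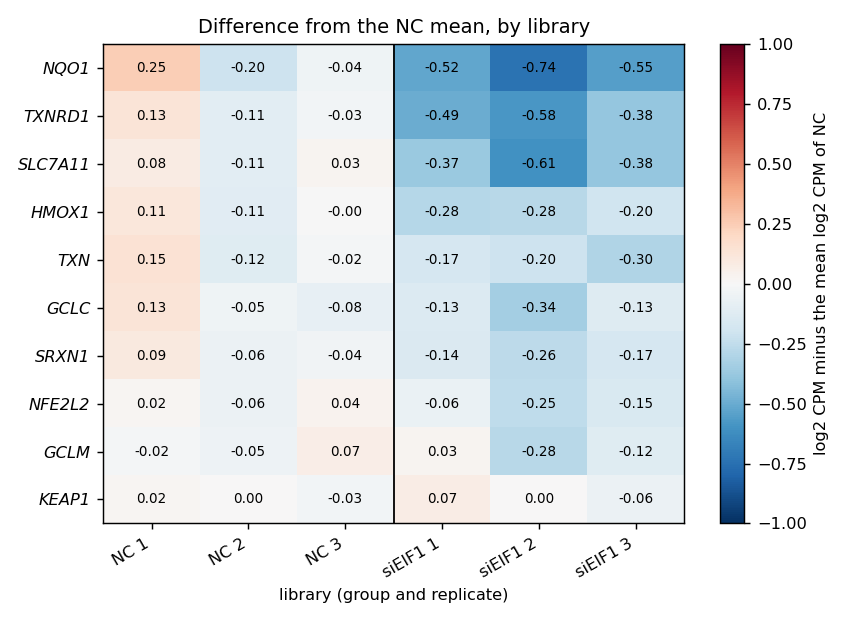
Log2 CPM of each gene in each library minus the mean log2 CPM of the NC libraries, with blue below and red above that mean. Columns are libraries and rows are genes in order of fold change. NC replicate 1 is above the NC mean in 9 of 10 genes, and siEIF1 replicates 1, 2 and 3 are below it in 8, 9 and 10.

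The order of the levels was the same in both groups. By FPKM, which is per length, TXN was the most abundant with 207 ± 20.0 in the NC and 174 ± 6.77 in the siEIF1 libraries (SD, n = 3). TXNRD1 followed with 156 ± 13.4 and 110.2 ± 10.0, then NQO1 with 93.8 ± 15.2 and 60.5 ± 5.95. SRXN1, KEAP1 and NFE2L2 lay between 32.5 and 17.9 FPKM. HMOX1 had 7.09 ± 0.574 and 5.85 ± 0.297 FPKM, SLC7A11 5.43 ± 0.386 and 3.91 ± 0.425, and the ligase subunits were lowest. GCLM had 2.79 ± 0.151 and 2.54 ± 0.298 FPKM, and GCLC had 2.66 ± 0.196 and 2.29 ± 0.233. Neighbours in this order did not overlap within a group, except GCLM and GCLC, which overlapped in both groups.

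The other antioxidant genes moved in both directions. The remaining pathway lists held 127 further genes, of which 117 were tested, and 24 were lower and 25 higher (median log2 fold change 0.029). With 1 library left out, 18 to 23 were lower and 15 to 35 higher, with 16 higher without NC replicate 1, 15 without NC replicate 3 and 35 without siEIF1 replicate 3. Of 35 other genes known as NRF2 targets, 30 were tested. In that list 7 were lower and 5 higher, with a median of -0.0020, against 10.4% lower and 10.2% higher among all tested genes. MAFG, PRDX1 and SQSTM1 led the lower ones. PRDX1, an abundant peroxiredoxin, fell from 165 ± 3.28 to 137 ± 3.84 FPKM (SD, n = 3; log2 fold change -0.25, edgeR adjusted p = 0.00334). ME1, TKT and ABCC4 led the higher ones. ME1, which makes NADPH from malate, rose from 6.71 ± 0.662 to 9.24 ± 0.572 FPKM (SD, n = 3; log2 fold change 0.48, edgeR adjusted p = 3.13e-04). Without NC replicate 1, NC replicate 3 or siEIF1 replicate 2, 3 genes of this list were called lower. AKR1B10, AKR1C1, AKR1C2 and GPX2 had too few counts to be tested, and UGT1A6 was not among the genes with counts.

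**Figure D5:**
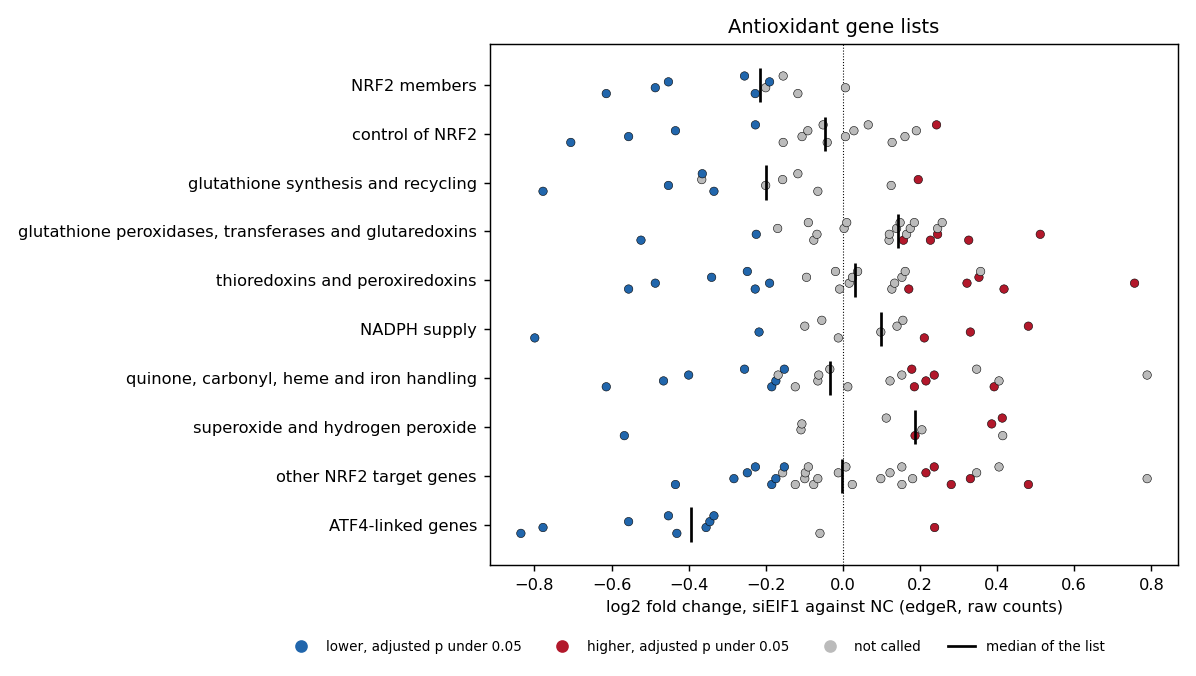
Log2 fold change, siEIF1 against NC (edgeR on raw counts), of each tested gene in the 10 lists, with the vertical bar at the median of the list. Blue and red points were lower and higher at an adjusted p under 0.05, and grey points were not called. The list of the 10 genes has 6 lower and 0 higher, the other NRF2 targets 7 and 5, and the ATF4-linked genes 8 and 1. Among all tested genes 10.4% were lower and 10.2% higher. Lists share genes.

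Within the thioredoxin and peroxiredoxin list, 6 of 22 genes were lower and 5 higher, against 10.4% and 10.2% of all tested genes. The 6 lower ones include TXN, TXNRD1 and SRXN1, which are already counted among the 10 genes. Without siEIF1 replicate 3, 8 genes were higher, and without any other library 4 were, while 4 to 6 were lower. PRDX3, the mitochondrial peroxiredoxin, fell from 71.5 ± 4.18 to 55.7 ± 2.22 FPKM (SD, n = 3; log2 fold change -0.34, edgeR adjusted p = 6.44e-04). PRDX4, the peroxiredoxin of the endoplasmic reticulum, rose from 31.8 ± 2.74 to 53.0 ± 1.10 FPKM (SD, n = 3; log2 fold change 0.76, edgeR adjusted p = 2.33e-06). NXN, nucleoredoxin, and MSRB3, a methionine sulfoxide reductase, were also higher, at 0.42 and 0.32 on the log2 scale. TXN2 and TXNRD2, the mitochondrial counterparts of TXN and TXNRD1, had log2 fold changes of 0.025 and 0.016 and did not pass the test (edgeR, adjusted p = 0.789 and 0.889). These 2 genes are named after their values were seen.

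In the list of glutathione synthesis and recycling, 4 of 11 tested genes were lower (CHAC1, SLC3A2, SLC7A11 and GGCT) and 1, OPLAH, higher. The shares over all tested genes were 10.4% lower and 10.2% higher. OPLAH lost its call with any library left out, and GGCT is named after its value was seen. CHAC1, which degrades glutathione, fell from 12.5 ± 1.33 to 7.16 ± 0.774 FPKM (SD, n = 3; log2 fold change -0.78, edgeR adjusted p = 4.42e-05). Among the enzymes that use glutathione, 2 of 22 tested genes were lower and 5 higher (median log2 fold change 0.14). The 2 lower genes are 9.09% of this list, near the share over all tested genes. The number higher rested on single libraries, being 9 without siEIF1 replicate 3 and 1 or 2 without any other library, while 1 to 3 genes were lower. GPX3, a secreted glutathione peroxidase, rose from 13.9 ± 0.945 to 19.5 ± 1.45 FPKM (SD, n = 3; log2 fold change 0.51, edgeR adjusted p = 1.80e-04). GLRX5, a mitochondrial glutaredoxin of iron-sulfur cluster assembly, was lower at -0.52 (edgeR, adjusted p = 1.64e-05). The GSTM genes are a family of related sequences, and whether reads were split between them was not tested. GSTM1 and GSTM3 were higher at 0.25 and 0.23, but lost the call without 5 and 3 of the libraries respectively. GSTO1, a glutathione transferase, was lower at -0.22 and lost its call without NC replicate 1 or NC replicate 3.

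Of 11 genes of NADPH supply, 2 were lower and 3 higher. Here and in the lists that follow, the shares over all tested genes were 10.4% lower and 10.2% higher. Without siEIF1 replicate 3, 5 were higher, and 1 was lower without any single library except siEIF1 replicate 1. IDH1, the cytosolic isocitrate dehydrogenase, fell from 29.0 ± 4.23 to 16.5 ± 2.20 FPKM (SD, n = 3; log2 fold change -0.80, edgeR adjusted p = 6.97e-05), and TKT, the transketolase of the pentose phosphate pathway, was higher at 0.33. The mitochondrial kinase NADK2 was lower at -0.22 and lost its call without any single library except siEIF1 replicate 1. The transhydrogenase NNT was higher at 0.21 and lost it without NC replicate 1 or NC replicate 3. Of 23 tested genes of quinone, carbonyl, heme and iron handling, 7 were lower and 5 higher. The 7 lower ones include NQO1 and HMOX1, which are already counted among the 10 genes. TFRC, the transferrin receptor, and NQO2, a relative of NQO1, were lower at -0.47 and -0.40, and the aldehyde dehydrogenase ALDH2 was higher at 0.39. ALDH3A2 and the epoxide hydrolase EPHX1 were higher at 0.18 and 0.24, and EPHX1 lost its call without NC replicate 3. With 1 library left out, this list had 3 to 5 genes lower and 3 to 6 higher, with 3 and 3 without NC replicate 1, NC replicate 3 or siEIF1 replicate 2. Among 9 tested genes of superoxide and hydrogen peroxide, SOD2, the mitochondrial superoxide dismutase, was lower at -0.57 (edgeR, adjusted p = 9.11e-06). Catalase (CAT) and the oxidase NOX4 were higher at 0.39 and 0.41. SOD1, the cytosolic dismutase, was higher at 0.19 and lost its call without any single library except siEIF1 replicate 3.

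SLC7A11 is also a target of ATF4, the transcription factor of the integrated stress response, and of the 10 genes only it is in the list of ATF4-linked genes. Of the 10 genes of that list 8 were lower and 1, ATF4 itself, higher (median log2 fold change -0.39). Among all tested genes, 10.4% were lower and 10.2% higher. DDIT3, the factor known as CHOP, fell from 78.8 ± 6.10 to 43.6 ± 1.77 FPKM (SD, n = 3; log2 fold change -0.84, edgeR adjusted p = 8.97e-07). ATF4 rose from 237 ± 1.87 to 275 ± 7.57 FPKM (SD, n = 3; log2 fold change 0.24, edgeR adjusted p = 0.00513). GAPDH, the reference gene of the study's RT-qPCR, was higher in the siEIF1 group (log2 fold change 0.30, standard error 0.055, edgeR adjusted p = 0.00169). Of 35 genes named from these lists by rule, 26 kept their call with each library left out in turn, and all 35 kept their direction.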

How the data were processed

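Per the labels and the methods of the study, the authors trimmed the reads of 6 libraries with FASTX-Toolkit, aligned them to GRCh38 with HISAT2, and deposited raw counts of uniquely mapped reads per gene. Replicates were described as independent and were processed in parallel and sequenced in one run. The authors also deposited FPKM, rounded, for all but 343 of the genes. The counting program, strand setting and annotation release are not given in the sources used here. Each column was matched to a library by its title. Here, low counts were removed with filterByExpr and 16749 genes fitted with edgeR 4.0.16 (TMM, quasi-likelihood test, Benjamini-Hochberg, R 4.3.3). Calls used an adjusted p under 0.05 with no fold limit unless stated. Standard errors came from the F statistic. DESeq2 1.42.0 and limma 3.58.1 on log2(FPKM + 1) or log2(FPKM + 0.1), for genes with a mean FPKM of at least 1, were alternatives. Limma on log2(FPKM + 1) was also run for all genes. The tests were checked on simulated data with changes of 2-fold or more. Those of the 10 genes were smaller, and the check does not cover changes of their size. Coordinates are from GENCODE release 44, which has another version of the NFE2L2 and TXNRD1 entries than the files. Named are EIF1, GAPDH, the 10 genes and, in each list and direction, up to 3 called genes with the smallest p. The 10 genes and the lists were chosen with earlier results of these data known. Errors cover the spread between these libraries.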

Additional observations from a re-analysis of the deposited data

How the results depend on the processing

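The log2 fold change of EIF1 stayed between -3.61 and -3.55. Of the 160 values of the 10 genes under 16 alternatives, 133 kept their direction and side of the threshold, and outside KEAP1 all 144 were negative. KEAP1 turned negative with library size alone (-0.019), with limma on log2(FPKM + 1) (-0.014, with or without the filter on low FPKM), with limma on log2(FPKM + 0.1) (-0.015), without NC replicate 3 (-0.0068) and without siEIF1 replicate 1, the range with 1 library left out being -0.029 to 0.039. The number of the 10 genes called lower was 6 with RLE and upper-quartile normalization and with at least 10 counts in every library. It was also 6 with DESeq2 and with filtered limma. With library size alone or no filter on low counts it was 7, NFE2L2 being added. With 1 library left out it was 3 to 6. It was 1 when limma on log2(FPKM + 1) took in genes of low FPKM, where TXNRD1 was called, and 3 at an adjusted p under 0.01. The number higher and the number past the 2-fold limit were 0 throughout. For the other NRF2 targets, 3 to 6 were lower and 4 to 6 higher with 1 library left out. At an adjusted p under 0.01, 3 were lower and 3 higher, at 0.1, 8 were higher, and with unfiltered limma 3 were higher. With the replicate number as a block, 8 of the 10 genes were lower, NFE2L2 (edgeR, adjusted p = 0.0147) and GCLC (edgeR, adjusted p = 0.0350) being added, and 8 and 7 of the other targets were lower and higher. Libraries with the same number deviated from their group means with correlations of 0.15, 0.095 and 0.13 over genes, not all above 0.1, so the numbers were not taken to pair them. Each library correlated best with its own number, which is a hint from the data and not the design. A fit that leaves out a library has fewer samples. The fewest counts were behind GCLM, HMOX1 and GCLC, with means of 512.5 to 753. Changes are relative to the other genes of a library, since no spike-in was used here, and a common shift is not measured.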
